A study of Mus musculus with 118 samples.

Results

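The transcripts of 7 genes that mark microglia in the brain, *C1qa*, *C1qb*, *C1qc*, *Csf1r*, *Cx3cr1*, *Ctss* and *P2ry12*, were read in single SOM+ interneurons of mouse cortex. They are 7 of the 23998 gene symbols counted, chosen by name with earlier results of these data known. All 7 had a read in at least 10 of the cells described here. The RNA came from Patch-seq, in which a patched neuron is recorded and its cytosol is then collected through the pipette for cDNA synthesis, here in cortical slices of adult SOM-Cre/Ai9 mice. In these mice Cre is driven from the somatostatin locus, and the red fluorescent protein tdTomato marks present or past somatostatin expression; all groups share this genotype. The labels give 44 cells of layer 4 (L4) of primary visual cortex (V1), 39 of L4 of primary somatosensory cortex (S1), 19 of V1 L5 and 16 of S1 L5, with no treatment and no animal named. Cells were kept with at least 1500 genes above 0, at most as many *Slc17a7* counts as *Gad1* and *Gad2* together and a read of *Sst*, which left 42, 34, 17 and 16 cells and left out 9.

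Microglia are the resident macrophages of the brain, which survey their surroundings with fine processes that touch neuronal cell bodies and synapses. Of the 7 genes, *C1qa*, *C1qb* and *C1qc* encode the chains of C1q, the protein that starts the classical complement cascade and tags synapses for removal. *Csf1r* is the receptor for CSF1 and IL-34, on which microglia depend for survival, *Cx3cr1* is the receptor for the neuronal chemokine fractalkine, and *P2ry12* is a purine receptor that steers microglial processes. *Ctss* encodes cathepsin S, a lysosomal protease. Cortical interneurons are not known as a source of these transcripts, whereas they make fractalkine (*Cx3cl1*) and IL-34 (*Il34*), so both sides of these signalling pairs can be read in the same cells.

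The genes were placed on the annotated genome (GRCm38, the assembly called mm10 in the submitters' processing notes, GENCODE M21). The 3 C1q genes sit side by side on the minus strand of chromosome 4, *C1qb* at chr4:136880129-136886187, *C1qc* at chr4:136889804-136893065 and *C1qa* at chr4:136895917-136898803, within 18675 bases, and no other annotated gene overlaps them. *Ctss* is at chr3:95526786-95556403 on the plus strand and *Cx3cr1* at chr9:119901616-120069879 on the minus strand. *P2ry12*, at chr3:59216272-59262871 on the minus strand, lies inside *Med12l* (chr3:59005825-59318682, plus strand), and the annotation has exon bases that both share. *Cx3cr1* shares exon bases with *Gm33858*. The library method does not mark strand, so reads over shared bases cannot be assigned, and *P2ry12* is given as uncertain for that reason.

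Because the 3 C1q genes were read together and with *Ctss* in many of the cells (below), the 250 bases before the start of *C1qb* and of *Ctss* are shown, the windows of these genes that overlap no annotated exon. They are from RefSeq (GRCm38.p6), 5′ to 3′ on the strand of the gene, and capitals mark the letters GAGGAA or GGAAGT, short forms of the sequence bound by ETS factors such as PU.1, or their reverse complements TTCCTC and ACTTCC.
C1qb, chr4:136886201-136886450, minus strand: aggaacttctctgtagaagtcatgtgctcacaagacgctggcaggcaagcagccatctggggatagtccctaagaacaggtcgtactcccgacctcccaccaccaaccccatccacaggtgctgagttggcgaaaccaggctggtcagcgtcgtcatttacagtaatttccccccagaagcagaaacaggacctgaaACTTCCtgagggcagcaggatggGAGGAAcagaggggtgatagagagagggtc
Ctss, chr3:95526536-95526785, plus strand: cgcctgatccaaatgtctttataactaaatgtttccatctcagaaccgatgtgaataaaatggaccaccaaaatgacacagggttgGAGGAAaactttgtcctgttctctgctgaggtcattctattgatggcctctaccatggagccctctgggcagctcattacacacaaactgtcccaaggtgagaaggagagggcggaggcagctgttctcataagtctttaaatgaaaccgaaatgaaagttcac
The table held windows for 5 of the 7 genes, *C1qb*, *C1qc*, *Ctss*, *Cx3cr1* and *P2ry12*. GAGGAA on either strand was in 3 of the 5 windows (*C1qb*, *C1qc* and *Ctss*) and in 23.3% of all 32851 windows of the same length, and GGAAGT in 3 of the 5 (*C1qb*, *C1qc* and *P2ry12*) and in 19.7% of all. In *C1qc* the 2 matches overlap each other, on the opposite strand of the gene. One or the other was in 4 of the 5 windows and in 36.7% of all. The 2 motifs were chosen after these windows had been seen, so the shares are no test of enrichment. The windows of *C1qc*, *Cx3cr1* and *P2ry12* also overlap annotated exons. A match of letters is a description of the sequence and not a binding site.

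Every kept cell had reads of *Sst* and of *Gad1*. Both genes enter the rule that kept the cells, so they are no separate support for the identity of the cells. The medians were 1223 CPM for *Sst* and 1597 CPM for *Gad1* (CPM are the counts of a gene scaled to a common total per cell). *Slc17a7*, a marker of excitatory neurons, was read in 22 of the kept cells, at 4.82 CPM pooled. Total counts ranged from 97904 to 3295232 per cell with a median of 1111833, and no pair of cells had identical counts. Dates in the labels, taken as recording days, gave 9 days. These were split here into 2 series at the gap between July and September, days 1 to 6 and 7 to 9. The labels name no series, and L5 cells were in the first series alone. Since no cell is tied to an animal, an area and layer together count as 1 sample. Values are therefore described over cells and days and no p-value is given, and intervals cover counting error only. In Smart-seq2-based cDNA without molecular identifiers, 1 captured molecule can give many reads, so counts are not independent molecules.

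At least 1 of the 7 genes was read in 79 of the SOM+ cells, 72.5% (95% Clopper-Pearson interval 63.1% to 80.6%), and the reads were concentrated in some of them. *C1qb* was read in 54 cells, *C1qa* in 44, *C1qc* in 38, *Ctss* in 33, *Csf1r* in 27, *P2ry12* in 17 and *Cx3cr1* in 15. Thus *C1qb* reached 49.5% of the cells (95% Clopper-Pearson interval 39.8% to 59.3%) and *Cx3cr1* 13.8% (7.91% to 21.7%). Of the 763 values (7 genes in all kept cells), 228 were above 0. Those 228 values had a median of 111.5 counts and quartiles of 38.75 and 231.25 counts, 196 of them were at least 20 counts, and 12 were exactly 1 count. A gene was thus usually either at 0 or far above a single read in a cell.

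**Figure D1:**
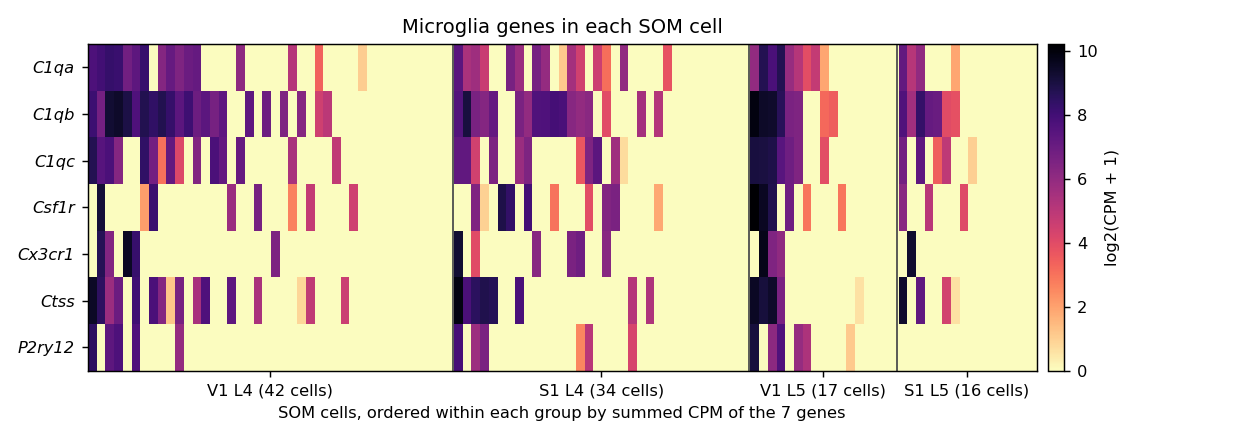
Each column is 1 SOM+ cell and each row 1 of the 7 genes, coloured by log2(CPM + 1), with the cells grouped by area and layer and ordered by the summed CPM of the 7 genes. Reads of several genes fall in the same cells at the left of each group, and 30 cells have no read of any of the 7.

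On a scale per transcript length, the deposited RPKM, the mean level over all kept cells was 100.7 for *C1qb*, 53.6 for *Ctss*, 45.0 for *C1qc*, 40.3 for *C1qa*, 11.5 for *Csf1r*, 10.9 for *Cx3cr1* and 8.75 for *P2ry12*. The means of single days had an SD over the 9 days of 80.5 for *C1qb* and 86.4 for *Ctss*, and *C1qb* was above *Ctss* in 7 of 9 days. *Ctss* was above *C1qc* in 5 of 9 days and *C1qc* above *C1qa* in 4 of 9, so these neighbours in the order did not differ beyond their spread. *C1qa* was above *Csf1r* in 8 of 9 days, *Csf1r* above *Cx3cr1* in 7 and *Cx3cr1* above *P2ry12* in 4. The 3 C1q genes and *Ctss* were read at a higher mean RPKM than the 3 cell-surface receptors.

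Of the 3 C1q chains, *C1qb* was read most often in L4 and was the chain with the highest pooled level in all 4 groups. Its level over the summed counts of a group was highest in V1 L5, 146.3 CPM (95% Poisson interval 140.98 to 151.8), followed by V1 L4 with 94.2 CPM (91.6 to 96.8), S1 L5 with 64.0 CPM (60.5 to 67.7) and S1 L4 with 57.9 CPM (55.8 to 60.1). The single cells ran from 0 to 681 CPM with a median of 26.04 CPM in V1 L4, and from 0 to 531 CPM with a median of 7.43 CPM in S1 L4. In L5 the medians were 0 and the highest cells had 978 CPM in V1 and 320 CPM in S1. All 4 groups held cells from 0 to 320 CPM, and the highest V1 L5 cell lay above every cell of the other groups. In V1 L5, 43.3% of the *C1qb* counts were from 1 cell, and the pooled level without that cell was 91.9 CPM. In S1 L5, 1 cell held 65.4% of the counts, and the level without it was 25.5 CPM.

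*C1qa* was read in 16 of 42 V1 L4 cells, 15 of 34 S1 L4 cells, 9 of 17 V1 L5 cells and 4 of 16 S1 L5 cells. Its pooled level was 40.8, 20.95, 74.8 and 14.8 CPM in that order, and the highest cells had 309.8, 167.7, 427 and 142.9 CPM. *C1qc* was read in 15, 11, 7 and 5 cells, with pooled levels of 40.9, 21.1, 98.6 and 27.6 CPM. For both chains the lowest cell of every group was at 0, so the groups overlapped. Without the cell with the most *C1qc* counts, which need not be the cell with the highest CPM, V1 L5 had 58.9 CPM and S1 L5 had 8.13 CPM. Without the cell with the most *C1qa* counts S1 L5 had 7.48 CPM.

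*Ctss*, which cuts proteins in the endosomes of antigen-presenting cells, was read in 16 cells of V1 L4, 8 cells of S1 L4, 5 of V1 L5 and 4 of S1 L5. Among cells with a read, V1 L5 had a median of 538 CPM and S1 L4 of 292 CPM, whereas V1 L4 had 89.3 CPM and S1 L5 had 86.1 CPM. The highest cell had 733, 935, 711 and 659 CPM in these groups. At the pooled level V1 L5 had 109.6 CPM, S1 L4 had 58.5 CPM, V1 L4 had 43.7 CPM and S1 L5 had 46.0 CPM. Without the cell with the most *Ctss* counts of the group V1 L5 had 49.8 CPM, S1 L4 38.3 CPM and S1 L5 22.3 CPM, so that 1 cell set much of each value.

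The receptors were read in fewer cells. *Csf1r* was read in 8 of 42 V1 L4 cells, 10 of 34 S1 L4 cells, 6 of 17 V1 L5 cells and 3 of 16 S1 L5 cells. Its highest cell had 1191 CPM in V1 L5, and those of V1 L4, S1 L4 and S1 L5 had 567, 469 and 73.5 CPM, while the median was 0 in every group. The pooled level of *Csf1r* ran from 4.02 CPM in S1 L5 through 19.7 and 29.1 CPM in L4 of V1 and S1 to 108.7 CPM in V1 L5, the widest range over groups among the 6 genes with a read in each group. Without the cell with the most *Csf1r* counts in each group these levels were 1.34, 11.98, 19.4 and 72.5 CPM. The 3′ end of *Csf1r* shares exon bases with *Hmgxb3* on the other strand, so its reads are uncertain.

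*Cx3cr1* was read in 5 V1 L4, 6 S1 L4, 3 V1 L5 cells and 1 S1 L5 cell. Its pooled level was 22.6, 29.3, 48.4 and 18.1 CPM. The only S1 L5 cell with a read had 644 CPM, and in V1 L5 the highest cell held 74.3% of the counts, without which the level was 12.997 CPM. In S1 L4 the level without the highest cell was 16.2 CPM. At this number of cells with a read, no order of the groups can be read for *Cx3cr1*.

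*P2ry12* was read in 5 of 42 V1 L4 cells, 6 of 34 S1 L4 cells, 6 of 17 V1 L5 cells and 0 of 16 S1 L5 cells. The 0 of 16 cells allows a share of up to 18.75% by the limit of 3 counts and up to 20.6% by the exact 95% interval, and the share in V1 L5 was 35.3% (95% Clopper-Pearson interval 14.2% to 61.7%). Where it was read, V1 L5 had a highest cell of 534 CPM and a pooled level of 36.4 CPM. V1 L4 had 354 and 19.3 CPM, and S1 L4 had 234 and 10.7 CPM, or 5.58 CPM pooled without its highest cell. *Med12l*, the gene that surrounds *P2ry12*, was read in 52 cells, of which 8 were among the 17 cells with *P2ry12*, and 9 of the 17 had no *Med12l* read. Pearson's r between both genes on the log2(CPM + 1) scale was -0.05 across the cells, while 16 of the 17 cells had another of the 7 genes and 14 had at least 3 of the other 6.

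**Figure D2:**
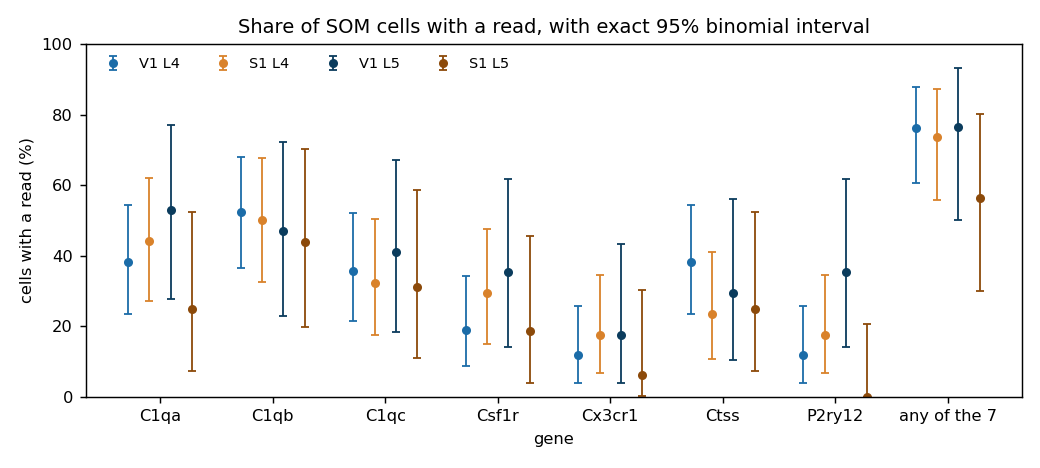
Points are the percentage of SOM+ cells with at least 1 count of each gene, and of any of the 7, by area and layer, with exact 95% binomial intervals as bars. The intervals of the 4 groups overlap for every gene, and *P2ry12* is at 0 of 16 cells in S1 L5.

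Several of the 7 genes were often found in the same cells, and all 7 in few. The number of genes read per cell was 0 in 30 cells, 1 in 20, 2 in 21, 3 in 11, 4 in 12, 5 in 7, 6 in 6 and 7 in 2. At least 4 were read in 27 cells, 24.8% of all kept (95% Clopper-Pearson interval 17.002% to 33.96%). By group these were 11 of 42 V1 L4 cells, 8 of 34 S1 L4 cells, 6 of 17 V1 L5 cells and 2 of 16 S1 L5 cells. Their shares were 26.2% (13.9% to 42.04%), 23.5% (10.7% to 41.2%), 35.3% (14.2% to 61.7%) and 12.5% (1.55% to 38.3%), with intervals that overlapped.

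All 21 pairs of the 7 genes were read together in more cells than the product of their shares gives. *C1qa* was read in 35 of the 54 cells with *C1qb*, and 35 of the 44 cells with *C1qa* had *C1qb*. Of the 66 cells with a C1q chain, 23 had all 3, 24 had 2 and 19 had 1. Of the 23 cells with all 3 chains, 22 also had at least 1 of the other 4 genes. *Cx3cr1* cells were nearly all C1q cells, with *C1qa* in 14 and *C1qb* in 14 of 15. *Csf1r* had the lowest r with the other 6 (0.29), with *C1qb* in 16 of its 27 cells and *C1qa* in 13, and in 4 cells it was the only one of the 7.

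Pearson's r of the log2(CPM + 1) values across the kept cells was above 0 for all 21 pairs, from 0.11 (*Csf1r* and *P2ry12*) to 0.61 (*C1qa* and *C1qb*), with a median of 0.41. The cells share days, depth and a library method, and the many zeros shape these coefficients, so they are a description.

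**Figure D3:**
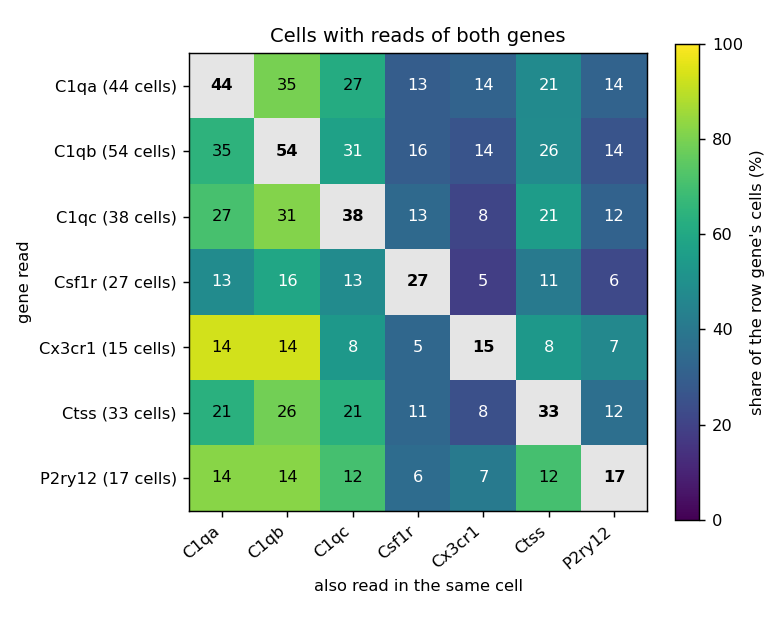
Each square gives the number of SOM+ cells with reads of both the row and the column gene, coloured by the percentage of the row gene's cells, and the diagonal gives the cells with the gene. *Cx3cr1* and *P2ry12* cells mostly also hold *C1qa* and *C1qb* (14 of 15 and 14 of 17 for each), and the *Csf1r* row has lower shares.

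The 8 cells with 6 or 7 of the genes held 43.1% of all counts of the 7. Their summed level ran from 683 to 4017 CPM, against a median of 77.2 CPM over all kept cells. A V1 L5 cell of day 5 had all 7, with 654 CPM of *C1qb*, 668 CPM of *Ctss*, 469 CPM of *C1qc*, 446 CPM of *Csf1r*, 225 CPM of *C1qa*, 86.8 CPM of *Cx3cr1* and 68.6 CPM of *P2ry12*. An S1 L4 cell of day 3 also had all 7, with 363 CPM of *Ctss* and between 15.3 CPM (*Cx3cr1*) and 95.3 CPM (*C1qb*) of the others. The highest sum, 4017 CPM, was in a V1 L5 cell of day 3 with 1191 CPM of *Csf1r* and no read of *Cx3cr1*; it had 1978 genes above 0. The 8 cells had 99.6 to 3910 CPM of *Sst*, with a median of 1506 CPM beside 1223 CPM over all kept cells, and 443 to 3205 CPM of *Gad1*. A read of *Sst* was required to keep a cell, so its presence is not a result. The highest *Slc17a7* count in 1 of these cells was 130, of 674 counts over all kept cells. Of the 8 cells, 5 were of day 3.

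Across all kept cells the summed 7 genes showed little relation to *Sst*, *Gad1* or depth. Pearson's r of log2(summed CPM + 1) was -0.10 with *Sst* and -0.05 with *Gad1*, and -0.13 with the log10 total count (Spearman's rho -0.20). It was -0.02 with the number of genes above 0. In cells thinned to 250000 counts each, which 2 V1 L5 cells and 1 S1 L5 cell did not reach, at least 1 of the 7 was read in 68.9% of cells, beside 71.7% of the same cells without thinning. For at least 4 of the 7 the values were 24.5% and 25.5%. No cell type known to lack the genes was sequenced here, so a background share could not be read from these samples.

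Each of the 7 genes was then compared with all other genes over the kept cells. For the log2 level of each gene against the log2 of the summed other 6, r was 0.64 for *C1qa*, 0.63 for *C1qb*, 0.59 for *C1qc*, 0.52 for *Ctss*, 0.41 for *P2ry12*, 0.34 for *Cx3cr1* and 0.29 for *Csf1r*. Ranked among 12203 other genes with a read in at least 10 cells, by their r with the same 6, these were at rank 1 for *C1qa* and *C1qb*, 2 for *C1qc*, 7 for *Ctss*, 24 for *P2ry12*, 51 for *Cx3cr1* and 98 for *Csf1r*. An r of at least 0.3 was reached by 6 of the 7, and by 0.582% of the other genes against the sum of all 7. The median r over those genes was -0.01. The 7 genes and the gene lists below were chosen with earlier results of these data known, so ranks and shares are a description.

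The 20 genes most like the summed 7 began with *Ftl1*, ferritin light chain (r = 0.59), *Cst3*, the protease inhibitor cystatin C (0.58), and *Ccl4*, a chemokine (0.57). *Laptm5*, *Tyrobp* and *Fcer1g* followed at 0.54 each, of which *Tyrobp* and *Fcer1g* are signalling adaptors of myeloid receptors. *Il1a*, an interleukin, was at 0.54, *Aldoc*, an aldolase of astrocytes, at 0.53, *Aif1*, which encodes the microglial antigen Iba1, at 0.49, and *Ccl3*, a chemokine, at 0.49. The other ten were *Fth1*, *Ppp1r18*, *Apoe*, *Fcrls*, *Sepp1*, *Bcl2a1b*, *Ly86*, *Gstm1*, *Sparc* and *Siglech*, from 0.48 down to 0.43. *Laptm5* was read in 36 cells, of which 35 had a read of the 7, *Fcer1g* in 37 with 36, *Siglech* in 18 with 18 and *Ly86* in 17 with 17. *Ccl4* was read in 63 cells, 56 of them with a read of the 7, and *Il1a* in 40, 38 of them with one. With the second series alone, 6 of these 20 were among the nearest 20.

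Of 22 other microglia and macrophage genes, all had a read, 18 had one in at least 10 cells, and 14 of those 18 had an r of at least 0.3. Their median r was 0.41, beside -0.01 over all genes. *Trem2*, a receptor for lipids, was read in 30 cells, 29 of them with a read of the 7 genes, and *Spi1*, which encodes PU.1, in 20 cells, all of them with one. *Tmem119*, a defining marker of microglia, was read in 6 cells, all 6 with a read of the 7, and *P2ry13* in 4 of 4. *Lgmn*, a lysosomal protease, was read in 96.3% of all cells, and its r was 0.01. The summed list ran from 3.20 to 4683 CPM per cell with a median of 664 CPM, of which *Lgmn* had 330 CPM (median).

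The markers of macrophages at the borders of the brain were near 0. Of 8 genes, 3 (*Pf4*, *Cbr2* and *Ms4a7*) were at 0 in all cells, and *Mrc1*, *Cd163*, *Lyve1*, *F13a1* and *Cd74* were read in 1 to 4 cells each. The pooled sum of these 8 was from 1.10 CPM in S1 L4 to 5.75 CPM in V1 L5. Endothelial and mural markers had 2 of 8 genes at 0 (*Ly6c1* and *Kcnj8*), *Cldn5* was read in 1 cell, and the pooled sum was from 2.52 CPM in V1 L4 to 9.28 CPM in V1 L5.

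Markers of other glia were read as well. The 8 astrocyte genes summed to 574 CPM for V1 and 395 CPM for S1 in L4, and to 177.6 CPM for V1 and 196 CPM for S1 in L5, with 0 to 10560 CPM in single cells. None of the 8 was at 0 in all cells, and 2 of the 5 read in at least 10 cells, *Aldoc* (r = 0.53) and *Slc1a2* (r = 0.31), had an r of at least 0.3 with the 7 genes. The log2 sum of the astrocyte genes had an r of 0.47 with that of the 7, beside 0.54 for the sum of the other microglia and macrophage genes and 0.25 for that of the oligodendrocyte genes. The 8 oligodendrocyte genes summed to 1116 CPM in S1 L4, 732 CPM in S1 L5, 267 CPM in V1 L4 and 239 CPM in V1 L5, mostly *Mbp*, and 0 of 4 reached 0.3, with a highest r of 0.24. Of the 7 excitatory neuron genes, 5 were read in at least 10 cells with a highest r of 0.29 (*Slc17a7*), and the 8 SOM neuron genes ran from -0.19 to -0.01. RNA of other cells in the pipette and transcription in the SOM+ cell itself cannot be told apart for a gene in these samples, and the part of these glial markers in the result was not tested.

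**Figure D4:**
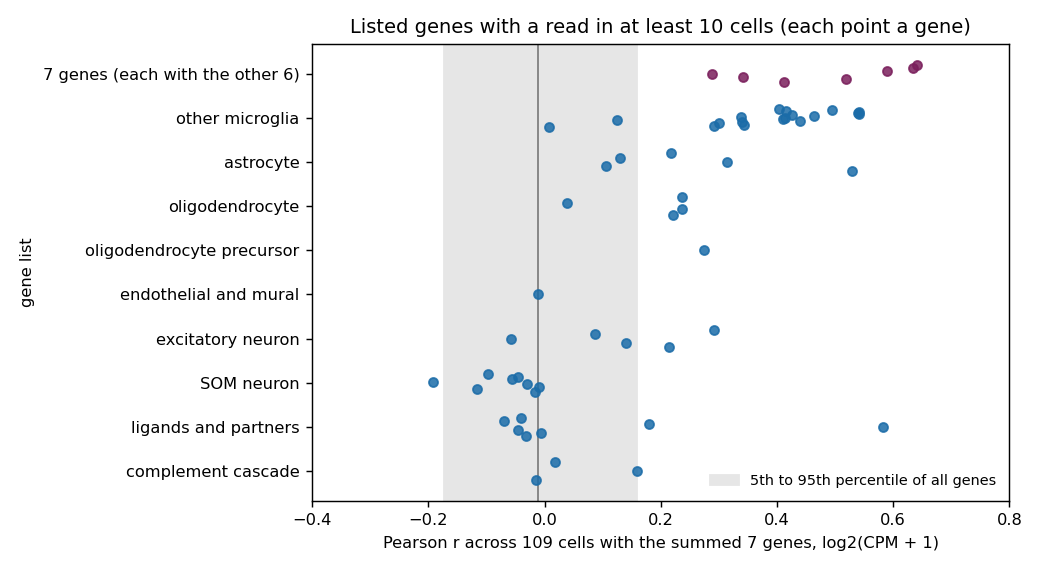
Each point is a gene with a read in at least 10 SOM+ cells, placed by its Pearson r with the log2 summed CPM of the 7 genes (the 7 themselves with the other 6), by gene list on the vertical axis; the grey band is the 5th to 95th percentile of 12203 genes. The 7 genes lie between 0.29 and 0.64, and the SOM neuron genes between -0.19 and -0.01.

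The neuronal ligands of the receptors were read broadly. *Cx3cl1*, the ligand of *Cx3cr1*, was read in every kept cell, from 91.9 to 2461 CPM with a median of 702 CPM, and it was pooled at 888 CPM for S1 and 712 CPM for V1 in L4, and at 826 CPM for S1 and 807 CPM for V1 in L5. *Il34*, a ligand of *Csf1r*, was read in 87 cells, with pooled levels of 163.5 CPM in S1 L4, 93.7 CPM in S1 L5, 148.3 CPM in V1 L5 and 171.7 CPM in V1 L4, whereas *Csf1*, the other ligand, was read in 7 cells. Across cells, r with the 7 genes was -0.07 for *Cx3cl1*, -0.04 for *Il34* and -0.01 for *Csf1*. *Cd47* and *Cd200*, surface proteins that restrain phagocytes, were read in 92 and 89 cells with r of -0.05 and -0.01, and *Cd200r1*, the receptor of CD200, in 1 cell. *Sirpa*, the receptor of CD47, which neurons also make, was read in 100 cells with an r of -0.03.

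The later steps of the complement cascade were scarcely read beside C1q. Of 14 genes, *C1rb*, *C1s1* and *C4b* were at 0 in all cells, *C1ra* was read in 1 cell, *C1s2* in 3 and *C3* in 5, each with a pooled level under 1 CPM. *C3ar1*, the receptor for C3a, was read in 15 cells, 13 of them with a read of the 7, at 10.7 CPM pooled, and *C5ar1* in 8 cells, all 8 with one. *Cd55*, a membrane inhibitor of complement, was read in 46 cells with an r of -0.02.

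The comparison of areas and layers asked whether these reads differed with the position of the SOM+ cell. Summed over the 7 genes, V1 L5 had the highest pooled level, 623 CPM, followed by V1 L4 with 281 CPM, S1 L4 with 228 CPM and S1 L5 with 174.5 CPM. The SD over the days of a group was 685, 481, 239 and 217 CPM, so no neighbours in this order differed beyond the spread over days. The cells ran from 0 in every group to highest values of 4017, 1980, 2273 and 1185 CPM in the same order, and the medians were 25.3, 105.97, 184 and 8.21 CPM. V1 L5 thus had the highest pooled level and a median under that of both L4 groups, and 40.7% of its counts were in 1 cell. Without the cell with the most counts of the 7, V1 L5 had 409 CPM and S1 L5 96.7 CPM, and without the cell with the highest CPM they had 547 and 135.5 CPM. Without day 3, V1 L5 had 373 CPM and S1 L5 108.6 CPM. At least 1 of the 7 was read in 76.5% of V1 L5, 76.2% of V1 L4, 73.5% of S1 L4 and 56.2% of S1 L5 cells. With a read counted from 5 counts upward, these shares were 52.9%, 73.8%, 73.5% and 50% in the same order. The place of V1 L5 in this order thus rested on cells with very few counts.

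In L4, S1 and V1 cells did not differ in the 7 genes beyond the spread over days. The mean log2(summed CPM + 1) was 5.69 over 34 S1 cells and 5.85 over 42 V1 cells, a difference of -0.16. Within the 5 days with at least 2 cells of each area it was -3.05, 3.03, -2.54, 2.31 and -3.17, above 0 in 2 days and below 0 in 3, with an SD of 3.08. The sign also differed between the series, -1.45 in the first and 1.01 in the second. Of the 7 genes, 0 were lower in S1 by at least 1 on the log2(CPM + 1) scale, beside 6.06% of 12210 genes, and 0 were higher by at least 1, beside 6.32%. The difference ran from -0.58 for *C1qb* to 0.56 for *Csf1r*.

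In L5 all 7 genes were lower in S1 than in V1 by the mean over cells. Their sum was not lower on every day, and its difference lay within the spread over days. The mean log2(summed CPM + 1) was 3.68 over 16 S1 cells and 5.05 over 17 V1 cells, a difference of -1.37. Within days it was -5.20, -1.18, -0.65 and 4.46, with a mean of -0.64 and an SD of 3.96, and leaving out day 3 turned the difference over all cells to 0.19. Of the 7, 4 were lower by at least 1, *P2ry12* (-2.07), *C1qa* (-1.85), *C1qc* (-1.57) and *Csf1r* (-1.48), beside 7.72% of genes, and 0 were higher by at least 1, beside 18.5%. The median difference was -1.48 over the 7 and 0.17 over all genes tested. The 4 genes were read in overlapping sets of cells and are not separate observations. *P2ry12* was lower in S1 in 4 of 4 days, with a mean of -2.02 and an SD of 0.90. No S1 L5 cell had a read of it, so no day could lie above 0 and the shared sign adds nothing. *C1qa* and *Csf1r* were lower in 3 of 4 days each. *C1qb* had a within-day mean of 0.06, above 0 in 2 days and below 0 in 1, while the within-day means of the other genes were below 0.

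Between layers, within the first series, the sum was lower in L5 in both areas by the mean over cells. In V1 it was 5.05 in 17 L5 cells and 6.13 in 21 L4 cells, a difference of -1.08, but the 2 days with at least 2 cells of each layer gave 4.42 and -2.21, whose mean was 1.11. *Csf1r* was higher in V1 L5 by 1.17 and *C1qb* lower by 1.15 (a difference of -1.15), so 1 of 7 was higher by at least 1, beside 16.1% of genes, and 1 of 7 was lower by at least 1, beside 12% of genes. In S1 it was 3.68 in 16 L5 cells and 4.69 in 16 L4 cells, a difference of -1.003, with -3.81, -0.95 and -0.32 in the 3 days, an SD of 1.86, and 0.61 over all cells without day 3. There *P2ry12* alone was lower by at least 1 (-1.16), beside 7.98% of genes, and 0 were higher by at least 1, beside 18.4%. The comparisons of areas and of layers share their cells, so their values are not independent.

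Recording days ranged widely. All 3 cells of day 1, V1 L4 cells, had at least 4 of the 7 genes, with 594, 1870 and 1980 CPM. On day 4, 8 of 12 cells from all 4 groups had none and the highest sum was 60.8 CPM. On day 3, 13 of 16 cells had at least 1 gene and 7 had at least 4, on day 9 all 7 cells had at least 1, and on day 2 9 of 15 did. The share of cells with at least 1 of the 7 ranged from 33.3% on day 4 to 100% on days 1 and 9. By series it was 67.1% of 70 cells in the first and 82.1% of 39 cells in the second, with at least 4 in 25.7% and 23.1%. Day 1 held V1 L4 cells alone and day 9 S1 L4 cells alone, so day and group cannot be told apart for those days.

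**Figure D5:**
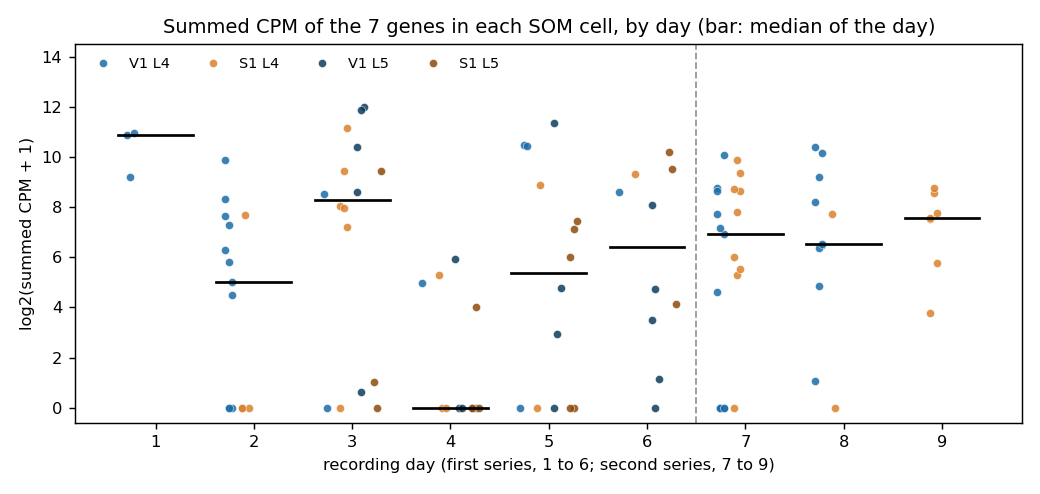
Each point is 1 SOM+ cell, placed by recording day and by log2 of the summed CPM of the 7 genes plus 1, coloured by area and layer; bars are the medians of a day and the dashed line separates the 2 series. Day 1 cells lie high (594 to 1980 CPM), day 4 cells lie at or near 0 (highest 60.8 CPM), and on days 3, 5 and 7 some cells are at 0 while others lie high.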

How the data were processed

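Patch-seq cDNA of single cells was sequenced without molecular identifiers. Per the submitters' processing notes, bcl2fastq 2.20, STAR 2.4.2a and the mm10 build were used. The authors deposited raw counts per gene, and RPKM values made with rpkmforgenes and RefSeq models. Entries with the same symbol were summed, which gave 23998 symbols. The counts were scaled to CPM, and log2(CPM + 1) used a pseudocount of 1. Genes compared had a read in at least 10 kept cells. A difference was called at 1 on the log2 scale and r at 0.3. Intervals are 95%, Clopper-Pearson for shares and Poisson for pooled counts, and 3 counts are what a count of 0 allows. Days entered within-day differences with at least 2 cells of each side. Thinning used the random seed 1. The 20 most similar genes were named by r with the summed 7 genes. The 7 genes and all lists were chosen with earlier results of these data known. The 2 motifs were chosen after the windows had been seen. Area and layer came from the labels and the date in a label was taken as the recording day. The series are a split of these days made here. The functions were tested on simulated data. TMM scaling, an alternative, used edgeR 4.0.16 in R 4.3.3, and all else Python 3.11.15 with SciPy 1.17.1, pandas 2.3.3, NumPy 2.4.6 and matplotlib 3.10.9. Electrophysiology and reference types were not analysed here.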

Additional observations from a re-analysis of the deposited data

Results flagged for a closer look

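Of the 9 cells left out, 5 held more than 3 counts of the 7 genes together, the limit that a count of 0 allows, in cells that entered the comparisons under other settings alone. A V1 L4 cell of day 2 with 745 genes above 0 had *C1qa* and *Ctss* reads, 3165 CPM together. Of 4 S1 L4 cells without an *Sst* read, 3 had reads, at 438, 60.2 and 153.1 CPM summed, of *C1qa*, *C1qb* or *C1qc*. The V1 L5 cell with more *Slc17a7* than *Gad1* plus *Gad2* had 4 counts of *Ctss*. None of the 9 had more than 2 of the 7 genes.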

How the results depend on the processing

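Of 266 values under the other settings tried, 261 stayed within the spread of their main value. This count is no measure of robustness. For pooled levels the SD over days was above the main value in every group, so no fall could leave that spread. In V1 L5 and V1 L4 it was 685 and 481 CPM beside 623 and 281 CPM. In S1 L4 and S1 L5 it was 239 and 217 CPM beside 228 and 174.5 CPM. The SD over days of each difference, 1.86 to 4.69, was also larger than the difference. Leaving out a day without cells of a group could not change its value. The sign of a difference changed in 9 of the 266 values, of which 6 were of S1 minus V1 in L4 (-0.16 over all kept cells), within the spread over days. Leaving out the cell with the highest CPM was chosen after seeing the data. Leaving out day 3 gave 0.19 for S1 minus V1 in L5 and 0.61 for L5 minus L4 in S1, and the mean of within-day differences gave 1.11 for L5 minus L4 in V1. The share with at least 1 gene in S1 L4 was 88.9% in the second series alone, and 6 of the 20 most similar genes were shared in the second series alone; the cause was not tested. Leaving out each day in turn, S1 minus V1 in L4 ran from -1.11 to 0.27, S1 minus V1 in L5 from -3.01 to 0.19, L5 minus L4 in V1 from -2.79 to -0.30 and in S1 from -1.92 to 0.61, and the share of cells with at least 4 genes from 21.5% to 27.8%. Pooled levels without a day ran from 221 to 331 CPM in V1 L4, 171.7 to 255 CPM in S1 L4, 373 to 905 CPM in V1 L5 and 108.6 to 252 CPM in S1 L5. The shares with at least 1 gene ran from 69.7% to 83.3%, 66.7% to 80%, 66.7% to 85.7% and 46.2% to 72.7% in the same order. RPKM gave no pooled CPM, the second series has no L5 cells, and neither was run there. No paired analysis was possible because the labels give no replicate numbers, and groups that share a recording day were compared by their within-day differences instead. Few cells per day, no named animal and counts without molecular identifiers limit every difference given.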
